A study of Mus musculus with 64 samples.

Results

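Fos, Fosb, Junb, Jun, Egr1, Egr2, Egr3, Egr4, Npas4 and Nr4a1 are genes for immediate early transcription factors. They were taken by symbol through the Ensembl gene IDs of the deposited expression table, and all 10 were found among its 18432 genes. The RNA came from brain cortex and hippocampus of Cyfip2 +/R87C knock-in mice, here KI, and their wild-type littermates, here WT, on the C57BL/6N strain at postnatal week (PWK) 1, 7, 14 and 28. Each of the 16 groups of genotype, region and age held 4 libraries, which gave 64 in all. KI mice carry 1 copy of Cyfip2, a gene of the actin-regulating WAVE complex, with arginine 87 replaced by cysteine in every cell of the body, and the other copy is intact. The line is a model of West syndrome with spasms in newborns and recurrent seizures in adults, and no drug was given to any group used here. Seizures of the single mice before tissue collection are not given in the sources used here. The sample labels do not say whether cortex and hippocampus libraries came from the same mice, nor that equal replicate numbers in the regions mark 1 mouse.

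Immediate early genes are transcribed within minutes of a stimulus from factors that already wait in the cell, without new protein synthesis. In neurons, calcium entry through synaptic receptors and voltage-gated channels activates kinases that act on CREB, which binds the CRE sequence, and on SRF with its ELK partners, which bind the CArG box. Fos and Fosb proteins pair with Jun or Junb to form AP-1, the Egr proteins are zinc finger factors that bind GC-rich sites, Npas4 is a neuronal bHLH-PAS factor that responds chiefly to calcium, and Nr4a1 is an orphan nuclear receptor. Their transcripts decay fast, so that levels in tissue rise and fall with recent activity, and Jun is also known for its induction by stress kinases and axonal injury.

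In the RefSeq promoter table for GRCm38.p6, usable entries were found for 8 of the genes, and the 250 bases before the start were searched on both strands. The CRE half-site TGACG, read CGTCA on the other strand, was present in 7 of 8 genes, which were Fos, Fosb, Junb, Egr2, Egr4, Npas4 and Nr4a1, and was not found for Jun. It occurs in 17.8% of the 32851 promoters of the table and, counted by gene as for the members, in 19.8% of its 27025 genes. The whole CRE, TGACGTCA, was found in 0 of 8 (1.77% of all genes of the table) and the AP-1 site TGANTCA in 0 (7.82%). The EGR site GCGNGGGCG was found in Fosb and Nr4a1 (5.33%), the CArG box in Egr2 (1.62%), and TATAAA in Fos (14.3%). Full CRE matches are counted among the half-sites. These are matches of letters and not measured binding, and a missing match says nothing about a factor. The windows of Npas4, Egr2 and Nr4a1 precede RefSeq starts that lie inside the gene, and all 250 bases of the Npas4 window are exonic. The windows of Fos, Egr4 and Nr4a1 are shown as members that rose and fell together across libraries, and that of Jun as the member that differed from them, each 5′ to 3′ on the gene's strand with the CRE half-sites in capitals. They are chr12:85473640-85473889 (+), chr6:85513590-85513839 (-), chr15:101266596-101266845 (+) and chr4:95052223-95052472 (-), in this order.
Fos: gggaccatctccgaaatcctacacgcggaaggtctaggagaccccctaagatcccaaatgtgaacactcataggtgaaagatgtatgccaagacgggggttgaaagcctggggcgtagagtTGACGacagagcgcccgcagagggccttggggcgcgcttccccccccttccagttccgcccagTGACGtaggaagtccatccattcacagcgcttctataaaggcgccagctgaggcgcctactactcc
Egr4: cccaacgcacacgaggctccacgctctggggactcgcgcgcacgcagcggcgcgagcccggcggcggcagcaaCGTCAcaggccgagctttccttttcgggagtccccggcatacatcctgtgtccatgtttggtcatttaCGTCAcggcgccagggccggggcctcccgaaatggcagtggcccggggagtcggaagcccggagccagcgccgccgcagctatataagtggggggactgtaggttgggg
Nr4a1: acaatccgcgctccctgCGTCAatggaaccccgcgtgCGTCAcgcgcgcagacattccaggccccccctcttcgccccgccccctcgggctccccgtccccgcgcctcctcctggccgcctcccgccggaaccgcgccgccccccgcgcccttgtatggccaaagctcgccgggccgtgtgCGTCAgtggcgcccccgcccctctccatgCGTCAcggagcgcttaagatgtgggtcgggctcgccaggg
Jun: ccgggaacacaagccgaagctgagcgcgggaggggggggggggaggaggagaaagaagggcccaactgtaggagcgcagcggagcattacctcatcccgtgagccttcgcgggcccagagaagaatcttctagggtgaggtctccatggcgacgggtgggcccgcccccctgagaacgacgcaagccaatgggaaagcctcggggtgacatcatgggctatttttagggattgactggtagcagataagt
Counted from the start, with -1 as the base before it, the half-sites begin at -129 and -66 for Fos, at -177 and -109 for Egr4, and at -233, -213, -69 and -40 for Nr4a1, whose window precedes the start of a RefSeq transcript inside the gene.

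On GRCm38 with GENCODE vM21, Fos lies at chr12:85473890-85477273 (+), Fosb at chr7:19302696-19310051 (-), Junb at chr8:84974484-84978718 (-), Jun at chr4:95049034-95052222 (-), Egr2 at chr10:67535475-67542188 (+), Egr3 at chr14:70077203-70082614 (+), Egr4 at chr6:85511121-85513589 (-), Npas4 at chr19:4984355-4990316 (-) and Nr4a1 at chr15:101254269-101274795 (+). All 10 are protein-coding genes. On the opposite strand, Prdx2 overlaps Junb and the antisense gene Junos overlaps Jun.

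Values are the authors' estimated counts per gene after DESeq2 scaling over all 64 libraries, called normalized values below. Library totals of these values were nearly alike, as the scaling makes them. Cyfip2 itself was at 14909 to 44053 in all libraries. Its edit changes a codon, so that its level does not check the genotype labels, and the KI to WT difference was called in cortex at PWK 28, at -0.44 on the log2 scale (SE 0.09). Region labels fitted the markers: Prox1, a dentate granule neuron gene, lay at 360.4 to 679 in cortex libraries and at 2980.2 to 6272 in hippocampus libraries. Ddx3y, from the Y chromosome, was at 826 or more in every library. The library of KI hippocampus PWK 14 replicate 1 stood apart: its 6 astrocyte markers summed to 208851 against 93381 to 106177 in the other 3 KI libraries, its 6 microglia markers to 22194 against 8836 to 12742, and its 6 choroid plexus markers to 1932 against 18239 to 99796. Beside several results of that group, values without it are given. In bulk tissue, fewer cells of a type and less RNA per cell cannot be told apart.

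The spread among KI libraries was the main feature of these genes in cortex at PWK 14 and in both regions at PWK 28. In hippocampus at PWK 14 it was less marked, and the KI mean on the log2 scale was above that of WT for all 10 members. Whether the means differed was tested as described below. Fos stood at 958, 1052, 1173 and 941 in the 4 WT cortex libraries at PWK 28, and at 3853, 229, 1843 and 128 in KI replicates 1 to 4. Npas4 in the same groups stood at 1088, 1132, 1226 and 1158 in WT and at 8394, 293, 4044 and 127 in KI. Egr1 stood at 9675, 9378, 10230.4 and 10239 in WT and at 17505, 2831, 13199.7 and 1111 in KI. In each case KI replicates 1 and 3 lay above every WT library and KI replicates 2 and 4 below every one.

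Most other members followed the same 4 libraries. Averaged over the 10 members, the difference of log2(value + 1) from the WT mean was 1.07 in KI cortex PWK 28 replicate 1, -1.72 in replicate 2, 0.53 in replicate 3 and -2.37 in replicate 4, while the WT libraries lay between -0.08 and 0.13. In replicates 2 and 4, 9 of 10 members were below every WT library, and the tenth, Jun, was above every one in both. Replicate 1 held 9 members above and 1, Egr3, below. Egr2, which acts in myelinating glia and in activated neurons, reached the lowest level of the members relative to WT, with 840.3, 21.7, 428 and 33.0 in KI against 463, 444, 493 and 501 in WT.

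**Figure D1:**
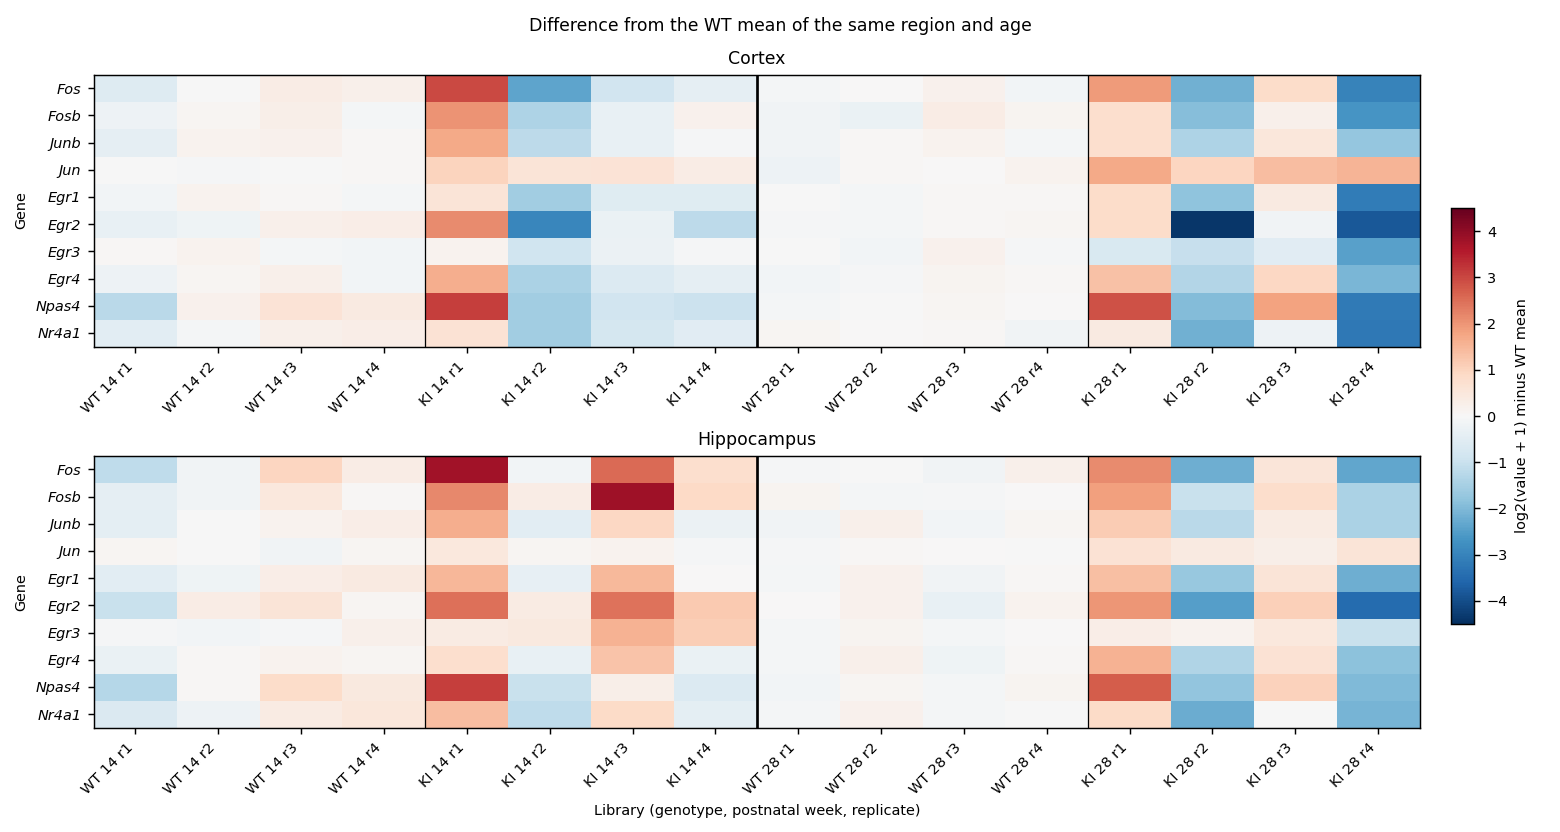
Heat maps of the difference of log2(value + 1) from the WT mean of the same region and age, for the 10 genes (vertical axis) in the 16 cortex and 16 hippocampus libraries of PWK 14 and 28 (horizontal axis, genotype, week and replicate), with red above and blue below the WT mean. The KI columns of PWK 28 alternate between red and blue for most genes, Jun is red in all 4 KI cortex columns at both ages, and the WT columns of PWK 28 stay pale.

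In KI hippocampus at PWK 28 the 4 libraries took the same order. Fos stood at 592, 612, 558 and 732 in WT and at 2712, 133, 902 and 121 in KI, and Npas4 at 603, 707, 619 and 712 in WT and at 4314, 192, 1367 and 166 in KI. Nr4a1 stood at 2339.6, 2805, 2333 and 2473 in WT and at 4504, 533, 2437 and 579 in KI. Over the 10 members the mean difference from WT was 1.46, -1.34, 0.57 and -1.72 on the log2 scale in KI replicates 1 to 4. For 7 members, namely Fos, Fosb, Junb, Egr1, Egr3, Egr4 and Npas4, the 4 KI replicates ranked the same way in cortex and hippocampus at PWK 28, against 9.26% of all genes with a mean of at least 10. The replicate with the highest value carried the same number in both regions for 10 of 10 members, against 37.5% of all genes. For the WT libraries of that age the ranks matched for 0 of 10 members (4.19% of all genes).

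At PWK 14 single libraries stood out. Fos in cortex was at 450.1, 672, 860.3 and 802 in WT and at 5303, 129, 372 and 506 in KI, and Npas4 at 433, 1130.3, 1541 and 1319 in WT and at 8654, 338, 549 and 512 in KI. KI cortex replicate 1 was above every WT library for 10 of 10 members, and replicate 2 below every one for 9. In replicate 1 the oligodendrocyte markers summed to 70676 against 91383 to 151680 in the other KI cortex libraries. Its interneuron sum was 31584 against 23515 to 26338, and its neuron sum of 208111 lay within their 196843 to 210961. In hippocampus, Fos was at 111, 222, 489 and 316 in WT and at 3443, 226, 1454 and 417 in KI, and Fosb at 149, 176, 274 and 205 in WT and at 869, 246, 2795 and 363 in KI. There replicates 1 and 3 were high, above every WT library for 10 and 9 members. Replicate 1 is the library with the highest astrocyte and microglia sums. In replicate 3 the astrocyte sum lay between those of replicates 2 and 4, all above WT, and the microglia sum of 8836 was within the WT range of 8436 to 10282. The part of cell makeup in these levels was not tested.

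The SD of log2(value + 1) measured this spread, and no test of it was run. At PWK 28 the median over the members of the KI to WT ratio of SDs was 15.8 in cortex and 11.0 in hippocampus, where the median over all genes with a mean of at least 10 was 1.43 and 1.27. At PWK 14 it was 5.70 in cortex and 2.24 in hippocampus, with 1.19 and 1.51 over all genes. In cortex, KI SD was over 2 times the WT SD for 10 members at PWK 14 (23.3% of all genes) and for 9 at PWK 28 (32.5%). The hippocampus counts were 7 at PWK 14 (35.2%) and 10 at PWK 28 (25.8%). For PWK 1 and 7 the cortex counts were 0 (11.4%) and 4 (17.6%), and those of hippocampus 4 (17%) and 1 (15.4%). Npas4 in cortex at PWK 28 had the largest ratio of the members, with an SD of 2.91 in KI and 0.07 in WT.

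KI libraries reached both above and below every WT library for 9 members at PWK 14 (18.2% of all genes) and 8 at PWK 28 (18.1%) in cortex, and for 3 (18.9%) and 9 (18.3%) in hippocampus. At PWK 1 and 7 these counts were 0 and 3 in cortex (17.2% and 23.1%) and 4 and 2 in hippocampus (23.3% and 21.7%), and the median SD ratio of the members lay between 0.72 and 1.62. Without KI cortex replicate 1 at PWK 14 the ratio in that group was 2.99. In hippocampus at PWK 14 it was 2.11 without KI replicate 1, with 1.15 over all genes, and 3.82 without WT replicate 1. The sum of 6 neuron markers lay between 193880 and 209673 in the 4 KI cortex libraries of PWK 28, and between 193523 and 211372 in WT. Other marker sums varied more among these KI libraries. In replicates 1 to 4 the interneuron sum was 45055, 30088, 41918 and 39328. The endothelial and pericyte sum was 6026, 4145, 4811 and 4072, and the astrocyte sum 60197, 51073, 55075 and 52957. The oligodendrocyte sum was 104277, 110464, 112990 and 86393. The part of cell makeup in the spread was not tested.

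**Figure D2:**
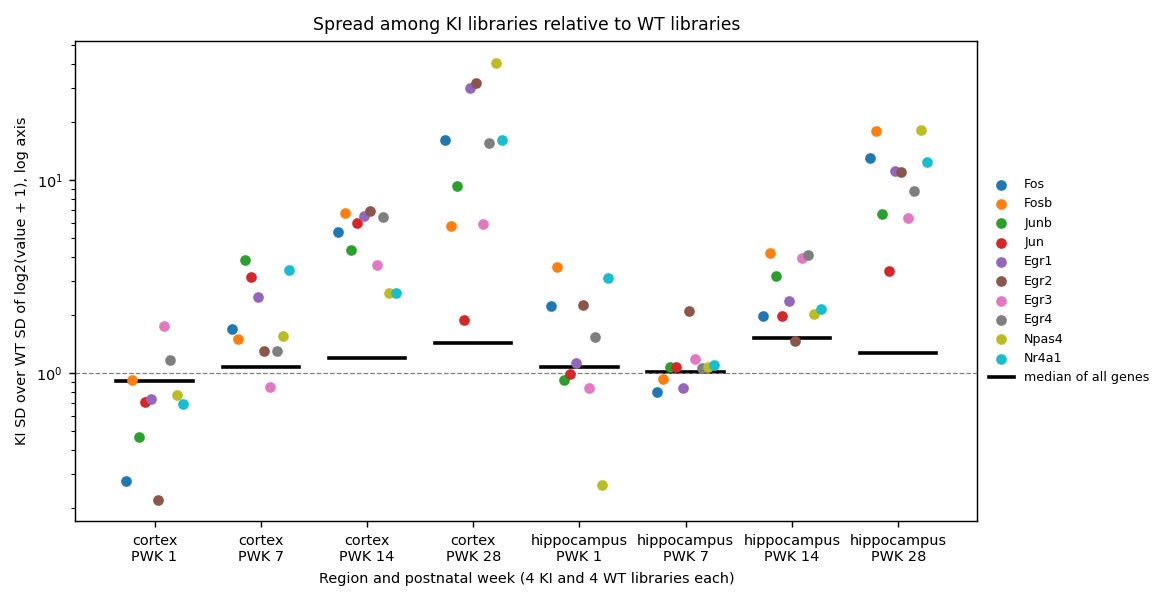
Ratio of the SD of log2(value + 1) among 4 KI libraries to that among 4 WT libraries (vertical log axis) for each gene (coloured points) by region and postnatal week (horizontal axis), with the median of all genes as a black bar. At PWK 28 the points of the 10 genes lie above the black bar in both regions, and at PWK 1 and 7 they lie on both sides of it.

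Whether KI and WT means differed was tested at each age and region with limma on log2(value + 1), with p-values adjusted over all genes tested and an adjusted p under 0.05 as the call. Jun and Egr3 were the members called. In cortex at PWK 14, 1 of 10 members was called, Jun, against 5.18% of all genes, and at PWK 28 2 were called, Jun and Egr3, against 22.2%. In hippocampus at PWK 14 Egr3 was called, against 15.6% of all genes, and at PWK 28 Jun, against 15.8%. The called members were those whose KI and WT libraries did not overlap. Groups without overlap made up 14.2% and 25.8% of all genes in cortex at these ages, and hippocampus had 23.8% and 21.5%.

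Jun, the AP-1 partner with a strong activation domain, rose in KI cortex. At PWK 14 it stood at 1206, 1168, 1195 and 1263 in WT and at 2436, 1797, 1865 and 1519 in KI, which is 0.64 higher on the log2 scale (SE 0.12, adjusted p = 0.0132, limma). At PWK 28 it stood at 823, 1012, 999.7 and 1088 in WT and at 3202, 1891, 2569 and 2823 in KI, which is 1.40 higher (SE 0.15, 95% interval 1.07 to 1.72, adjusted p = 0.000292, limma). All 4 KI libraries lay above all 4 WT libraries at both ages, including those in which Fos and Npas4 were far below WT. Leaving out any 1 library kept the calls, with an adjusted p of at most 0.0476 at PWK 14 and 0.00183 at PWK 28.

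In hippocampus Jun was higher to begin with. At PWK 28 it stood at 2335, 2539, 2444 and 2410.3 in WT and at 3776, 3186, 2917 and 3600.1 in KI, which is 0.46 higher on the log2 scale (SE 0.07, adjusted p = 0.00218, limma), again without overlap. At PWK 14 the groups overlapped, with 3152, 2980.2, 2684 and 3159 in WT and 4109, 3169.8, 3322 and 2878 in KI, and the log2 fold change of 0.16 (95% interval -0.08 to 0.40) was not called. The KI effect on Jun at PWK 28 was smaller in hippocampus than in cortex by 0.94 on the log2 scale (interaction term, SE 0.18, adjusted p = 0.00629, limma), where 4.57% of all genes were called. At PWK 14 the same difference between regions was called for 0 of 10 members, against 2.85% of all genes, with 2 at an unadjusted p under 0.05. At PWK 28 the other 9 members had differences of 0.03 to 1.16, and none was called.

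Jun was also the member without overlap at PWK 1 in both regions, where no member passed the adjusted test. It stood at 1170.0, 923, 1239 and 1075 in WT cortex and at 1522, 1311, 1270.1 and 1489 in KI cortex, and at 2003, 1964, 2125 and 1942 in WT hippocampus and 2361, 2212, 2217 and 2148 in KI hippocampus. The log2 fold changes of 0.35 (SE 0.09) and 0.15 (SE 0.04) had adjusted p-values of 0.91 and 0.81. Groups did not overlap for 3.15% and 3.26% of all genes in these comparisons. Junos, from the strand opposite to Jun, was not called in any KI comparison, with log2 differences of -0.83 in cortex at PWK 7 to 0.61 in hippocampus at PWK 14.

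Egr3, an Egr factor also known for its role in muscle spindle development, fell in KI cortex at PWK 28. It stood at 10169, 9409, 11957 and 9989 in WT and at 6357, 5071, 7305 and 1913 in KI, with a KI to WT difference of -1.17 on the log2 scale (SE 0.33, adjusted p = 0.0307, limma). All KI libraries were below all WT libraries, replicates 1 and 3 included, although Fos, Npas4 and Egr4 were above WT in those 2 libraries. The call was lost without any one of the 4 WT libraries, with adjusted p-values of up to 0.0798.

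In KI hippocampus at PWK 14 the same gene rose. Egr3 stood at 3119, 3008, 3127 and 3760.3 in WT and at 4192, 4412, 9608 and 7065 in KI, a difference of 0.88 on the log2 scale (SE 0.24, adjusted p = 0.0352, limma). Without KI replicate 1, the library with high glial markers, the log2 fold change was 1.05 (adjusted p = 0.00958). The call was lost without KI replicate 4 or any one of the WT libraries, with adjusted p-values of up to 0.0959. Opposite directions in cortex at PWK 28 and hippocampus at PWK 14 compare other ages and regions and were not set against each other in a test. Within 1 age, the difference between regions was 1.15 at PWK 14 (adjusted p = 0.0709) and 1.16 at PWK 28 (adjusted p = 0.185).

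**Figure D3:**
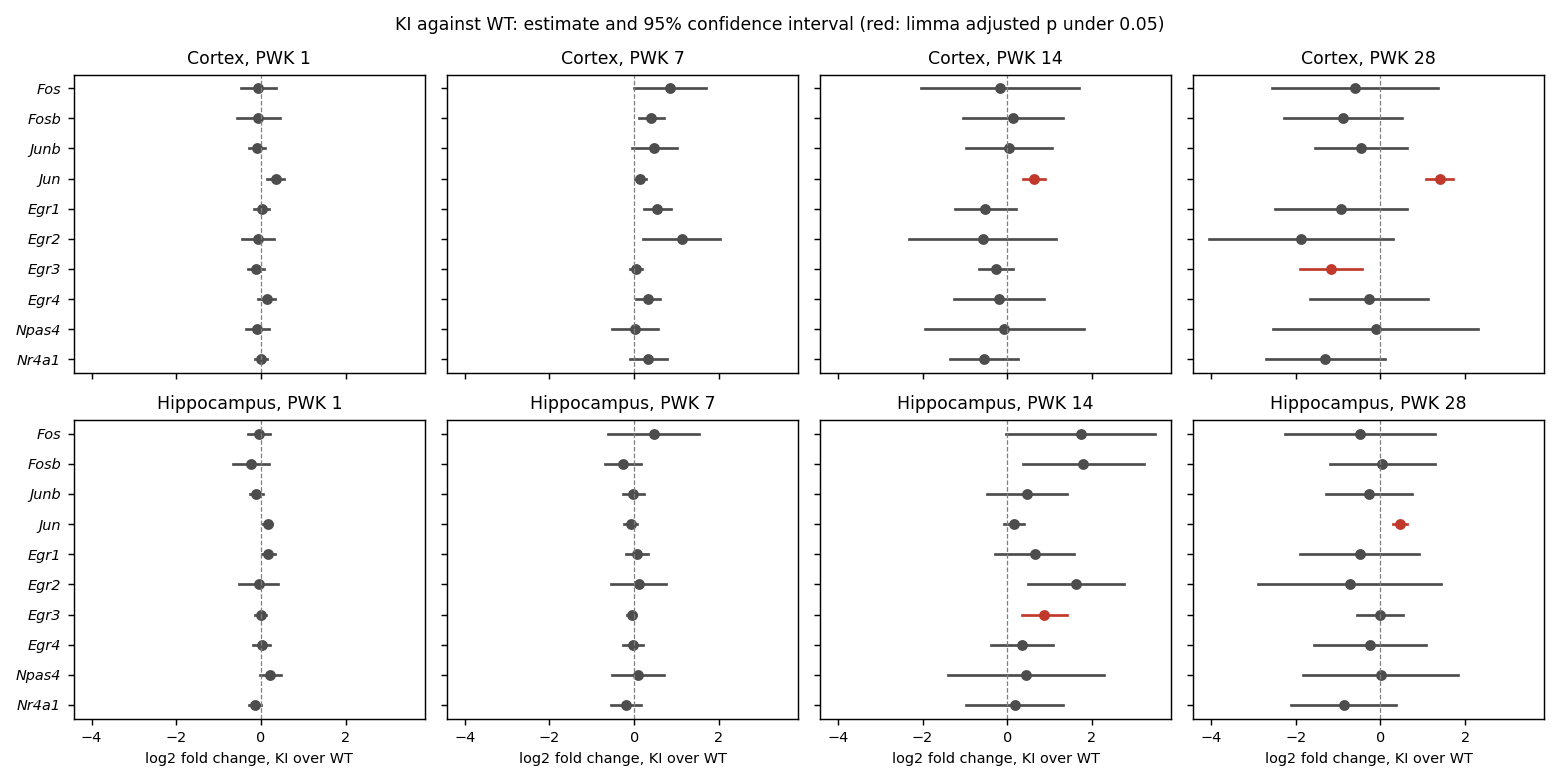
Log2 fold change of KI over WT (horizontal axis) with its 95% confidence interval for the 10 genes (vertical axis) in 8 panels of region and postnatal week, with genes called by limma at an adjusted p under 0.05 in red. Jun is red in cortex at PWK 14 and 28 and in hippocampus at PWK 28, Egr3 is red in cortex at PWK 28 and hippocampus at PWK 14, and the intervals of the other genes are wide at PWK 14 and 28.

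For the other 8 members the means were not resolved at PWK 14 and 28. In hippocampus at PWK 14 all 10 members had a log2 fold change above 0, with a median of 0.56 against 0.01 for all genes. Among the 10 in hippocampus at PWK 14, the log2 fold changes were highest for Fosb, the AP-1 factor whose truncated form builds up with repeated stimulation, at 1.80 (95% interval 0.37 to 3.22, adjusted p = 0.0859), for Fos at 1.73 (-0.03 to 3.49, adjusted p = 0.164) and for Egr2 at 1.62 (0.48 to 2.76, adjusted p = 0.0582). Without KI replicate 1, the library with high glial markers, they were 1.68, 1.05 and 1.33, and Egr3 was still the member called. The other 6 members then lay between -0.45 for Npas4 and 0.38 for Egr1. Egr2 in cortex at PWK 28 had a log2 fold change of -1.88 with an interval of -4.05 to 0.29. The interval of Fos in that comparison reached from -2.56 to 1.35 and that of Npas4 from -2.53 to 2.30, so that each spans both a several-fold fall and a several-fold rise. Junb, the AP-1 partner that can restrain Jun, had -0.46 (-1.54 to 0.62). These p-values come from a model that gives each gene 1 spread for both genotypes.

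One library decided some of these results. Without KI cortex replicate 1 at PWK 14, 4 members were called: Jun at 0.51, and Egr1 at -0.89, Egr4 at -0.81 and Nr4a1 at -0.96, all lower in KI (adjusted p = 0.0354, 0.0495 and 0.0447 for these 3, limma). Without KI cortex replicate 1 at PWK 28, 4 were called, with Egr2 at -2.78 and Nr4a1 at -1.88 beside Jun and Egr3 (adjusted p = 0.0388 and 0.0358 for the first 2). Without KI hippocampus replicate 2 at PWK 14, Fosb and Egr2 passed beside Egr3. Without KI hippocampus replicate 4 at PWK 28, Egr3 was called at 0.32, where all libraries gave -0.01. The share of all genes called in these reduced fits is not given here, so that a general gain of calls cannot be told from one of the members.

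At PWK 1 and 7 no member passed in either region. Called genes made up 0.00546% (PWK 1) and 0.00545% (PWK 7) of all genes in cortex, and in hippocampus 0.0109% and 0.0218%. In the same order, 1 and 6 members had an unadjusted p under 0.05 in cortex, and 2 and 0 did so in hippocampus, where no member was free of overlap at PWK 7 (3.87% of all genes). In cortex at PWK 7 the log2 fold change was above 0 for all 10 members, from 0.02 for Npas4 to 1.12 for Egr2, with adjusted p-values of 0.333 to 0.993. Egr1 there stood at 3209.6, 3273, 3213 and 3991 in WT and at 4271, 3792, 5463 and 6854 in KI, with a log2 difference of 0.54 (SE 0.15, adjusted p = 0.333, limma). Fosb was the member without overlap, at 153 to 197 in WT and 214 to 312 in KI, as were 4.62% of all genes. KI cortex replicate 4 at PWK 7 was above every WT library for 10 of 10 members and replicate 3 for 8. Between PWK 14 and 28 the KI effect changed significantly for 0 of 10 members in either region, with 0% of all genes called, and 2 members in each region had an unadjusted p under 0.05.

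**Figure D4:**
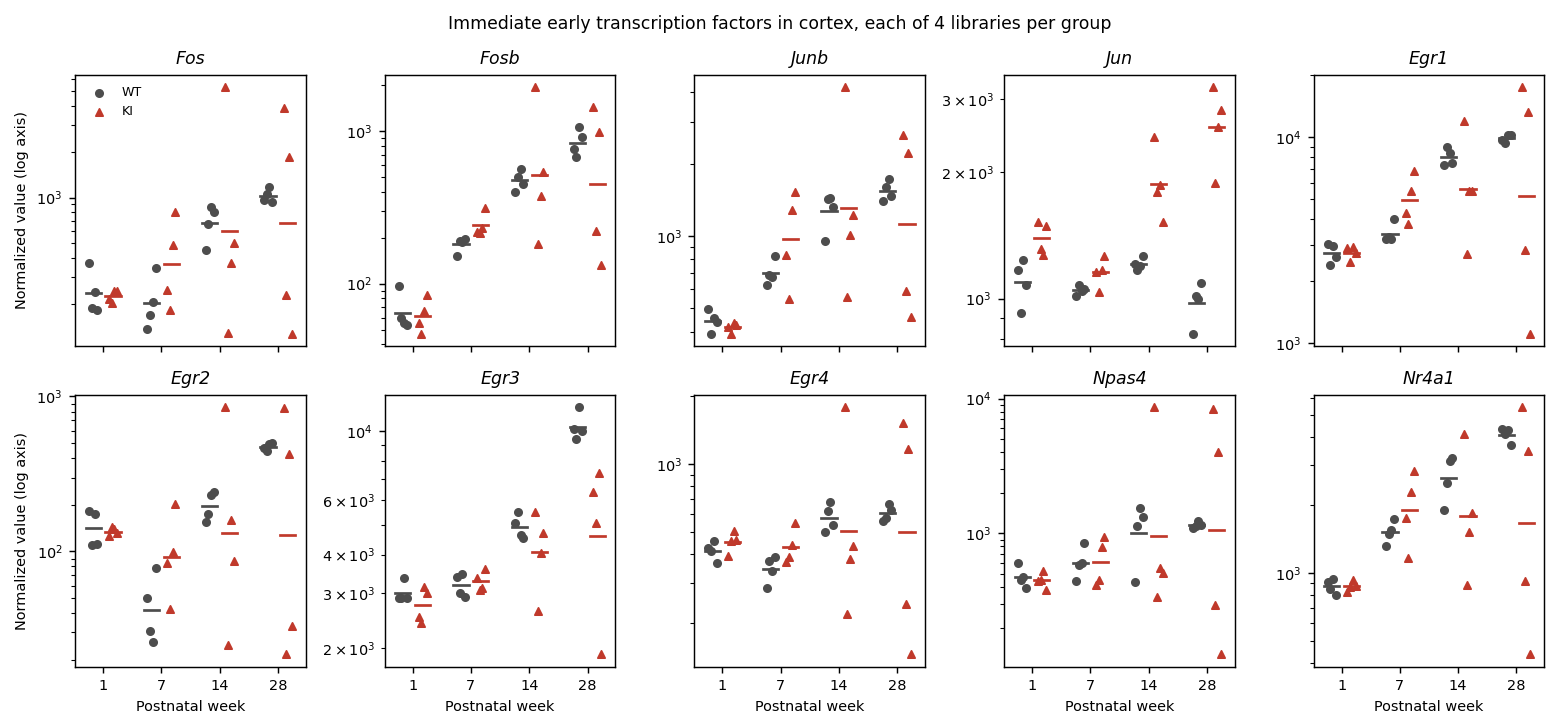
Normalized value in each cortex library (vertical log axis) of the 10 genes by postnatal week (horizontal axis), with WT as grey circles, KI as red triangles and the mean on the log2 scale as a bar. At PWK 28 the WT libraries of Fos lie between 941 and 1173 while its KI libraries run from 128 to 3853, and all KI triangles of Jun lie above the WT circles at PWK 14 and 28.

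Other genes of the activity-dependent programme were taken from lists. Counts given here and below for a fit without 1 library lack the share of all genes called in that fit. A general gain or loss of calls can then not be told from one of the genes counted. Of 19 further activity-regulated transcription regulators in the table, 5 were called in KI cortex at PWK 14 (5.18% of all genes), 2 higher and 3 lower, and 6 at PWK 28 (22.2%), 1 higher and 5 lower. The first count fell to 3 without KI replicate 2, WT replicate 1 or WT replicate 3, and the second to 3 without WT replicate 1. Their median log2 fold change was 0.00 and -0.19, where that of all genes was 0.00 at both ages. Among them Nr4a3 and Nr4a2, orphan nuclear receptors of the Nr4a1 family, fell at both ages: Nr4a3 by 1.39 (SE 0.22) and 1.75 (SE 0.34) and Nr4a2 by 1.22 (SE 0.24) and 1.00 (SE 0.24) on the log2 scale. The AP-1 gene Fosl2 fell by 1.19 at PWK 14. Klf10, a zinc finger repressor, rose by 0.59 at PWK 14, and at PWK 28 Klf6 rose by 0.41 and the bHLH repressor Bhlhe40 fell by 1.19.

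In KI hippocampus 7 of the 19 were called at PWK 14 (15.6% of all genes), 6 higher and 1 lower, and 5 at PWK 28 (15.8%), 2 higher and 3 lower. Without KI replicate 1, 8 were called at PWK 14, 7 higher and 1 lower. At PWK 14 the stress-induced factor Atf3 rose by 2.46 (SE 0.41), Klf10 by 1.65 and Fosl2 by 0.92, while Nr4a2 fell by 0.98. At PWK 28 Maff rose by 1.38 and Ier5 by 0.53, while Nr4a2 fell by 0.97 and Bhlhe40 by 0.34. Nr4a2 was thus lower in KI in all 4 late comparisons, and Nr4a1, of the same family, passed in none of them.

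Many effectors that neuronal activity induces, such as secreted proteins and kinases, rose in KI hippocampus at PWK 14, where 15 of 24 were called (15.6% of all genes) and all 15 were higher, with a list median of 1.07 on the log2 scale where all genes had 0.01, and without KI replicate 1 18 were called, all higher. The activin subunit Inhba rose by 3.20 (SE 0.22), Nptx2, which clusters AMPA receptors, by 3.18 (SE 0.30), the kinase Pim1 by 1.57 and the neuropeptide precursor Vgf by 1.33. At PWK 28, 10 were called (15.8% of all genes), 8 higher and 2 lower, and 6 without WT replicate 1 or 4, with Bdnf, a neurotrophin, up by 1.09 (SE 0.17), the G protein regulator Rgs4 by 0.95, Vgf by 0.69 and Scg2 by 0.52.

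In cortex 3 of the 24 effectors were called at PWK 14 (5.18% of all genes), or 5 without KI replicate 1, with Nptx2 up by 1.39, Inhba up by 1.04 and the prohormone convertase Pcsk1 down, at -1.05. At PWK 28, 9 were called (22.2%), 6 higher and 3 lower, among them Vgf at 0.98, Plk2 at 0.31, the kinase Sik1 at -0.87 and Pcsk1 at -1.66 (SE 0.14, adjusted p = 0.000129, limma). Leaving out any 1 WT library or KI replicate 3 lowered this count to 3 or 4, and in hippocampus at PWK 14 leaving out WT replicate 1 lowered it to 10.

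Feedback genes of the pathway were 8 phosphatases, Sprouty proteins and EGR co-repressors. In cortex at PWK 14, 2 were called (5.18% of all genes), Nab1 at -0.34 and Spry4 at -0.57, and this count ran from 0 without any one of WT replicates 1 to 3 to 4 without KI replicate 1. At PWK 28 Spry4 was called in each region, at -0.62 in cortex (22.2% of all genes) and -0.43 in hippocampus (15.8%), where the counts ran from 1 to 3 (3 without KI replicate 1) and from 0 (without WT replicate 4) to 2 (without KI replicate 1). In hippocampus at PWK 14 the count was 0 (15.6%), with 2 without KI replicate 3 and 1 without KI replicate 4. Among 21 upstream kinases, channels and transcription factors, 6 were called in cortex at PWK 14 (2 higher, 4 lower), 10 at PWK 28 (3 higher, 7 lower), 3 in hippocampus at PWK 14 (all lower) and 8 at PWK 28 (2 higher, 6 lower), beside the same shares of all genes, so that the 3 of 21 are near the background. The cortex count at PWK 14 fell to 3 without KI replicate 2 or any one of WT replicates 1, 3 and 4. The hippocampus counts were 5 at PWK 14 without KI replicate 4, 4 without KI replicate 1 (all lower), and 5 at PWK 28 without KI replicate 1 or WT replicate 2 or 3. Camkk2, the kinase that activates CaMKI and CaMKIV, was lower in all 4 comparisons, at -0.60 (PWK 14) and -0.89 (PWK 28) in cortex and at -0.95 and -0.63 in hippocampus. In cortex Camk4 fell by 0.46 and 0.45 and Camk2a by 0.46 and 0.72. At PWK 14 Elk1 was higher in cortex, at 0.48, and at PWK 28 Mef2d, at 0.25. Hippocampus values at PWK 14 and 28 were -0.74 and -0.31 for the ERK1 gene Mapk3 and -0.41 and -0.26 for the CREB coactivator Crtc1, and at PWK 28 the acetyltransferase Ep300 had -0.40. None of the genes of the 4 lists was called at PWK 1 or 7.

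Markers of cell types moved with some of these groups, and their part in the results was not tested. Of 6 interneuron markers, 5 were called in KI cortex at PWK 14 (5.18% of all genes) and 5 at PWK 28 (22.2%), 4 of them higher each time. The count at PWK 14 fell to 1 without WT replicate 3 and to 2 without KI replicate 2 or any other WT library. Their sum was 23515 to 31584 in KI against 18688 to 20385 in WT at PWK 14 and 30088 to 45055 against 21703 to 27856 at PWK 28. Astrocyte markers summed to 93381 to 208851 in KI hippocampus at PWK 14 against 60621 to 67630 in WT. There 2 of 6 were called (15.6% of all genes), both higher, with 3 without KI replicate 1, and 1 without any one WT library. At PWK 28 they summed to 97155 to 107837 against 62089 to 65333, with 3 of 6 called (15.8% of all genes). Microglia markers had 4 of 6 called in hippocampus at PWK 28 (15.8%), all higher, and 0 at PWK 14 (15.6%). Excitatory neuron markers summed to 152533 to 171587 in KI cortex at PWK 14 against 180587 to 199762 in WT. Endothelial and pericyte markers summed to 4520.3 to 5040.2 in KI cortex at PWK 14 against 6097 to 6803 in WT. There 3 of 6 were called (5.18% of all genes), all lower. Blood markers in cortex at PWK 28 summed to 3255 to 6609 in KI against 8514 to 9786 in WT. There 5 of 5 were called lower (22.2% of all genes), with 3 without KI replicate 1 or WT replicate 1 or 2. At PWK 14 0 were called (5.18% of all genes), or 4 without KI replicate 3. Of 6 meningeal and fibroblast markers, 4 were called in cortex at PWK 14 (5.18% of all genes), 3 higher and 1 lower. At PWK 28 4 were called (22.2%), 2 higher and 2 lower. The counts fell to 1 or 2 at PWK 14 without any one WT library and to 2 at PWK 28 without WT replicate 2 or 4. Of all marker genes, Folr1 and Otx2, from choroid plexus, were at 0 in some libraries.

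Across the 64 libraries, 8 members varied together. The deviation of log2(value + 1) from the group mean was correlated with the mean deviation of the other members at a Pearson r of 0.918 to 0.973 for Fos, Fosb, Junb, Egr1, Egr2, Egr4, Npas4 and Nr4a1, of 0.627 for Egr3 and of 0.386 for Jun. Within the 32 WT libraries r was 0.704 to 0.907 for the 8, 0.11 for Egr3 and 0.01 for Jun. The points share their libraries and most of the range comes from the late KI groups, so that r is a description. Outside the members, the genes most like them over 64 libraries were Arc (r = 0.946), Arl4d (0.933), Gadd45g (0.906), Ier2 (0.902), Ptgs2 (0.877), Btg2 (0.876), Sik1 (0.859) and Trib1 (0.853). All of these but Arl4d stood on the lists above, and within WT libraries Ptgs2 had an r of 0.02.

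In WT cortex most members rose from PWK 7 to 14. Fos stood at 372, 190.3, 242 and 183 at PWK 1, at 137, 171, 208 and 345 at PWK 7, at 450.1, 672, 860.3 and 802 at PWK 14, and at 958, 1052, 1173 and 941 at PWK 28. From PWK 7 to 14, 9 of 10 members rose, all but Npas4, against 3.22% of all genes called higher and 5.32% in either direction. The rise was largest for Egr2 at 2.20 (SE 0.29), Fos at 1.73 (SE 0.25), Fosb at 1.39 (SE 0.12) and Egr1 at 1.23 (SE 0.08), with adjusted p-values of 0.0017, 0.0026, 0.00015 and 3.1e-05. Npas4 had 0.73 (SE 0.32, adjusted p = 0.219). Age and the day of collection cannot be told apart, and neighbouring age comparisons share a group.

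From PWK 14 to 28, 6 members rose further in WT cortex and Jun fell, against 12% of all genes called in either direction. Egr2 rose by 1.26 and Egr3 by 1.07, to the 9409 to 11957 given above from 4523 to 5480.3. Jun fell by 0.31 (SE 0.08, adjusted p = 0.0270, limma) in cortex and by 0.30 (SE 0.06, adjusted p = 0.0123, limma) in hippocampus over the same weeks. In WT hippocampus 5 members were called from PWK 14 to 28, against 8.11% of all genes: Fos rose by 1.32, Fosb by 1.25, Egr2 by 1.39 and Nr4a1 by 0.86. Without WT hippocampus replicate 1 or 4 at PWK 28 2 members remained called, and without replicate 2 of PWK 14 or 2 or 3 of PWK 28 3 did. From PWK 7 to 14, 0 of 10 passed in hippocampus (1.99% of all genes), with 2 at an unadjusted p under 0.05.

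From PWK 1 to 7 Egr2 fell while Fosb rose in both regions. Egr2 in WT cortex stood at 183, 111, 175 and 111 and then at 49.8, 30.5, 26.0 and 78.1, a difference of -1.72 on the log2 scale (SE 0.32), and in hippocampus it fell by 1.44 (SE 0.18). Fosb rose by 1.48 (SE 0.19) in cortex and by 1.71 (SE 0.17) in hippocampus, and Junb by 0.65 and 1.26. In all, 6 members were called in cortex, 4 higher and 2 lower, and 8 in hippocampus, 7 higher and 1 lower, beside 65.3% and 61.3% of all genes, so that these counts are near the background. Egr4 fell by 0.27 in cortex (adjusted p = 0.0429) and rose by 0.47 in hippocampus. The fall of Egr4 was not called under total-sum scaling, with GC and length correction or without several single libraries.

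Region separated Jun from the other members in WT mice. In cortex at PWK 28 Jun lay at 823 to 1088 and in hippocampus at 2335 to 2539, a log2 difference of 1.32 (SE 0.08), and it was higher in hippocampus by 0.87 at PWK 1 and by 1.31 at PWK 7 and 14. The other 9 members were lower in hippocampus at PWK 28, from -0.32 for Junb to -1.61 for Egr2, so that 10 of 10 were called against 37.8% of all genes. At PWK 14, 8 were called, Jun higher and 7 lower (34.6% of all genes), at PWK 1 6, Jun higher and 5 lower (34.7%), and at PWK 7 3, Jun and Junb higher and Egr3 lower (40.8%). Without WT hippocampus replicate 4 at PWK 7, 6 were called. Cortex and hippocampus libraries may come from the same mice, and these tests treat the libraries as independent. Egr3 was the member, beside Jun, called at all 4 ages, with -0.48, -0.20, -0.60 and -1.44.

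In 1 model over all 64 libraries these WT calls fell to between 0 and 3 members, since that model gives each gene 1 spread over all groups, late KI groups included. Of all genes it called 576 of 18353 from PWK 7 to 14 in cortex, against 977 in the fit of the 2 groups only. From PWK 14 to 28 in cortex it called 2351 of 18381, against 2213, and between regions at PWK 28 6510 of 18400, against 6958. Under it no member rose from PWK 7 to 14 in cortex, and Jun was called at every age between regions as before.

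**Figure D5:**
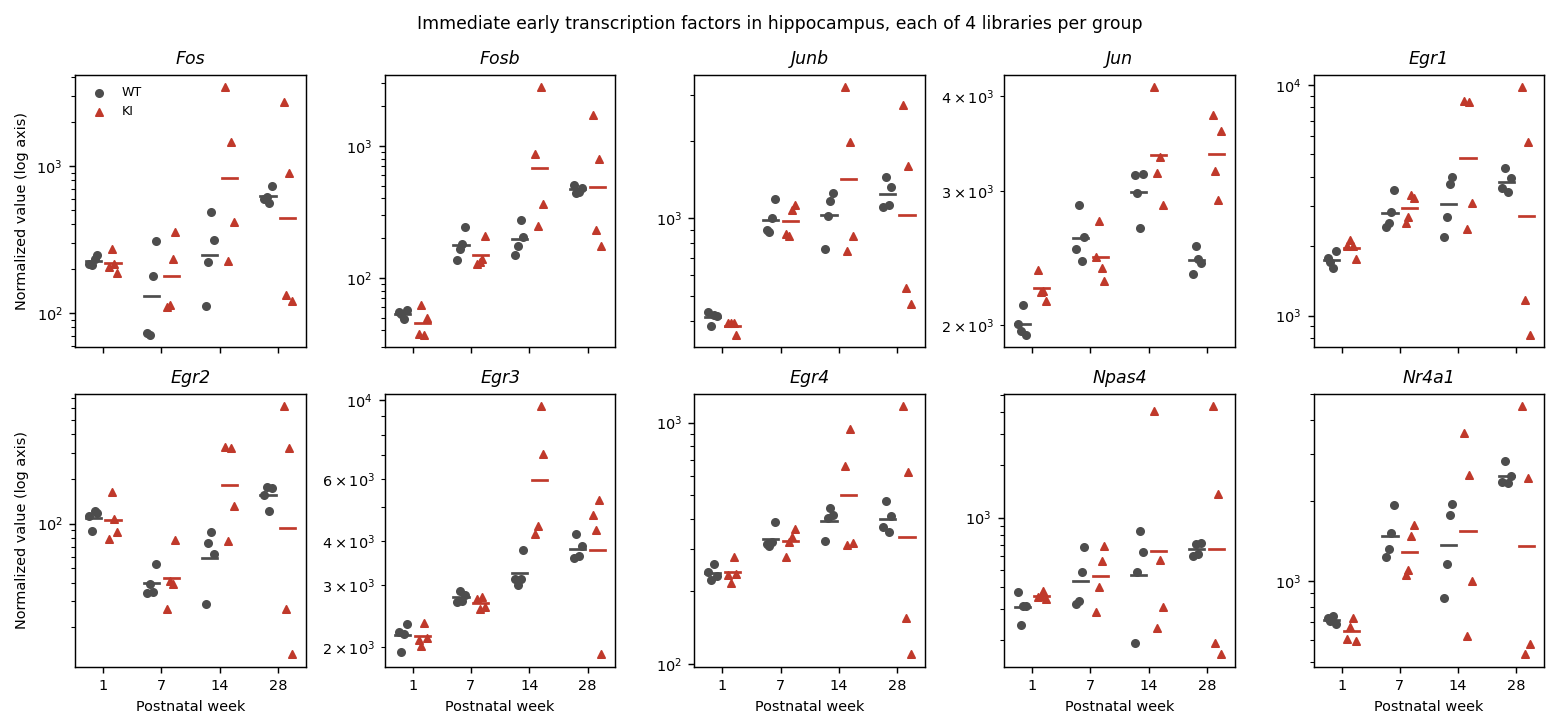
Normalized value in each hippocampus library (vertical log axis) of the 10 genes by postnatal week (horizontal axis), with WT as grey circles, KI as red triangles and the mean on the log2 scale as a bar. WT libraries of Fos at PWK 28 lie between 558 and 732 and KI libraries between 121 and 2712, and Jun stays within 1942 to 4109 in every group.

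Levels of different genes were compared per kilobase of exon, as normalized value divided by the summed exon length. In WT cortex at PWK 28 Egr3, at 2136 to 2714 per kilobase, and Egr1, at 2092 to 2283, overlapped at the top. Nr4a1 at 1054 to 1238, Junb at 609 to 756 and Fos at 400.0 to 499 followed without overlap. Jun, Egr4 and Npas4 overlapped between 258 and 341, and Egr2 and Fosb overlapped at the bottom between 109 and 170.2. In WT hippocampus Egr3, Egr1, Jun and Nr4a1 held the top with ranges that overlapped in chain between 665 and 971, and by its mean Jun stood at place 3 there and at place 6 in cortex.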

How the data were processed

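Bulk RNA-seq was measured in 64 mouse libraries, 4 in each of 16 groups taken from the sample labels. Transcripts were quantified by the authors with Salmon on GRCm38 and imported with tximport. The deposited values are a signal, estimated counts per gene that the authors scaled with DESeq2 over all 64 libraries. The submitters' processing notes name Salmon 0.11.2, DESeq2 1.19.11 and R 3.6.0, and the study's methods name other versions. The notes describe an mRNA kit and the methods a total RNA kit, both stranded. Low genes were absent from the table, where the lowest gene mean was 4.25.

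Gene names and positions came from GENCODE vM21, which matched 18420 of 18432 IDs. Since the values are not whole counts, limma 3.58.1 (R 4.3.3, trend) was fitted to log2(value + 1) over the libraries compared, for genes with a mean of at least 1, with Benjamini-Hochberg adjustment over all of them and a threshold of 0.05. Read depth is unknown from scaled values, so no counting interval is given, and 4 libraries a group limit the precision. The fit was tested on simulated data in which both genotypes had the WT spread of each gene, so that the wider KI spread of the members was not covered. The alternatives were a pseudocount of 5, no filter, total-sum scaling, all 64 libraries in 1 fit, correction for GC content and length, the replicate number as a block, and leaving out each library. Promoter sequences are from RefSeq.

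The members, the lists of other genes and markers, and the tests were chosen with earlier results of these data known. All members were named in every comparison, of each other list at most the 4 called genes with the smallest p against WT, and the 8 most similar genes by Pearson r (mean of at least 50). P-values rest on the spread among libraries within the groups fitted, 4 a group, which limma moderates over all genes.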

Additional observations from a re-analysis of the deposited data

Results flagged for a closer look

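Among 160 sets of 4 libraries, 1 for each gene and group, 13 held a library whose gap to its nearest neighbour, as a share of the set's range, was above Dixon's critical value at the 95% level. The shares were taken on the normalized values and not on the log2 scale, on which they can differ. Chance marks about 1 set in 20 if values are normally distributed and sets are independent. Members varied together, so that the sets are not independent. Of the 13, 8 were KI and 5 WT, and 4 came from KI cortex PWK 14 replicate 1, with shares of 0.927 for Fos, 0.839 for Egr2, 0.861 for Egr4 and 0.975 for Npas4. The share was 0.912 for Npas4 in KI hippocampus PWK 14 replicate 1, 0.8291 and 0.858 for Fosb in replicate 4 of KI cortex and KI hippocampus at PWK 7, and 0.949 for Junb in KI hippocampus PWK 1 replicate 4, the one lowest value. In WT it was 0.860 for Fosb (cortex PWK 1 replicate 1), 0.966 for Egr3 (cortex PWK 1 replicate 3), 0.918 for Egr1 (cortex PWK 7 replicate 4), 0.841 for Egr3 (hippocampus PWK 14 replicate 4) and 0.855 for Egr4 (hippocampus PWK 7 replicate 4).

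The KI effect on Jun at PWK 28 differed between regions by an interaction term, which was -0.94 for hippocampus against cortex.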

How the results depend on the processing

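The Jun calls in cortex at PWK 14 and 28 and in hippocampus at PWK 28, and its difference between regions at PWK 28, held under every alternative and without any 1 library. With all 64 libraries in 1 fit, 2 members were called for KI against WT in hippocampus at PWK 14, where 6050 of 18405 genes were called. For the difference of the KI effect between regions 2 were called at PWK 14 (2000 of 18424 genes) and 2 at PWK 28 (1319 of 18413). For the change of the KI effect with age in cortex 1 was called (914 of 18398 genes). In WT that fit called 1, 0 and 1 members for the successive ages in cortex (11778 of 18378, 576 of 18353 and 2351 of 18381 genes). In hippocampus it called 3 for PWK 7 against 1 (10947 of 18405 genes) and 0 for PWK 28 against 14 (1368 of 18387). Between regions it called 1, 1, 3 and 3 at PWK 1, 7, 14 and 28. The genes called there were 5877 of 18362, 7048 of 18411, 6537 of 18411 and 6510 of 18400.

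Without 1 library the members called for KI against WT numbered 1 to 4 in cortex at PWK 14, 1 to 4 at PWK 28, and in hippocampus 0 to 3 and 1 to 2. Shares of all genes called in the same fits are not given here. The counts were 0 to 2 for the difference between regions at PWK 14, 0 to 1 for the change with age in cortex, 2 to 5 for WT hippocampus PWK 28 against 14, and 2 to 6 between WT regions at PWK 7. Egr3 in hippocampus at PWK 28 ranged from -0.17 to 0.32 and turned positive and called without KI replicate 4. The median SD ratio at PWK 14 lay between 2.99 and 7.92 in cortex and between 1.92 and 3.82 in hippocampus. The ratios under other settings were added after seeing the data. The cause of these changes was not tested, except that the 1 fit shares 1 spread per gene over all groups.

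Deviations from the group means were correlated between same-numbered libraries at r of -0.29 to 0.38 between genotypes, with r over 0.1 in 10 of 32 pairs, and at -0.07 to 0.46 between regions, in 17 of 32. All 4 pairs of regions were over 0.1 in WT at PWK 1 and in KI at PWK 28, and not in the other groups. With the replicate number as a block, 6 members were called between WT regions at PWK 1, as without it, 6 at PWK 7 and 10 at PWK 14. Of all genes, 6591 of 18362, 7069 of 18411 and 6387 of 18411 were called in these fits. No other count of members moved by over 1.5 times with the block. Scaled values and 4 libraries a group limit what can be resolved.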
